A study of Arabidopsis thaliana with 4 samples.

Results

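The 39 nuclear genes described here encode the light-harvesting proteins and the nuclear-encoded photosystem subunits of Arabidopsis thaliana. They were taken by locus identifier from a fixed list, and all 39 were found among the 27322 gene models of the mRNA-seq table. The light-harvesting (LHC) class holds 17 of them (LHCA1 to LHCA4 and 13 LHCB genes), the photosystem I (PSA) class 12 and the photosystem II (PSB) class 10. RNA came from shoot apices of inflorescences of 6-week plants grown at 22°C with 16 h of light and 8 h of dark, after older flowers had been taken off. The groups were Col-0, the wild type (WT), and a line with the alleles mp319 and clv3-7, called mp clv3. MP is an auxin response factor needed for organ initiation, and CLV3 is a secreted peptide that restricts stem cells in shoot meristems. The labels give 2 biological replicates per genotype, but the table holds 1 column of read numbers and 1 of RPKM (reads per kilobase of gene model, scaled to the total of reads) per genotype. The sources do not say if a column is 1 replicate or a sum of 2, nor if replicates were separate plants. No difference below therefore has a replicate check, and the 95% intervals in parentheses cover counting error only.

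Light-harvesting proteins bind chlorophyll and carotenoids in the thylakoid membrane of the chloroplast and pass the absorbed energy to the reaction centres. LHCA proteins form the antenna of photosystem I. LHCB1 to LHCB3 form the trimers of the main antenna of photosystem II, and LHCB4 to LHCB6 are its single minor antenna proteins. The reaction centre proteins themselves are encoded in the plastid genome, while the genes described here supply the antenna and the surrounding subunits, are transcribed in the nucleus, and are known to respond to light and to the state of the plastid. They are most active in green tissue.

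The 5 LHCB1 genes are close copies of each other, so the sequence that separates them decides which reads can be given to which gene. CAB1, CAB2 and CAB3 lie together on chromosome 1 (TAIR10.1; CAB3 (AT1G29910) at 10472280 to 10473502 and CAB2 (AT1G29920) at 10474656 to 10475969, both on the minus strand, CAB1 (AT1G29930) at 10477885 to 10479114 on the plus strand), each with 1 exon. Their coding sequences are all 804 bases long and differ at 47 positions, with 95.6% to 96.4% identity between pairs. LHB1B1 and LHB1B2 lie on chromosome 2 and are 91.4% identical to each other. The following 60 bases (coding bases 25 to 84, RefSeq, TAIR10.1) are the stretch in which the 3 tandem copies differ most. Capitals mark the 8 positions at which at least 1 copy differs.
CAB1, chr1:10478095-10478154, plus strand: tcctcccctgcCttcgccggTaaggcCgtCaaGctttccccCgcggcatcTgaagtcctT
CAB2, chr1:10475809-10475868, minus strand: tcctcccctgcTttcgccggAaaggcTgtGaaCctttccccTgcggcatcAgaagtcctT
CAB3, chr1:10473163-10473222, minus strand: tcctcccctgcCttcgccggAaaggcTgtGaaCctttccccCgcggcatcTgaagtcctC
Words of 100 bases, the length of a read, were compared with every annotated transcript. In CAB1, CAB2 and CAB3, 4.07%, 4.44% and 1.51% of such words also occurred in another transcript, counting both strands. Of the 39 members, 26 shared no such word with any other transcript. No source used here says where a read with several matches was counted, and copies with fewer than 100 identical bases in a row can still exchange reads where mismatches are allowed.

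The upstream sequence is shown for the 3 tandem copies, whose ratios differ, and for LHCA4, LHCB4.1 and PSBQ-2, which hold the hexamer CACGTG (the G-box core). Each run is the 250 bases before the annotated gene start (RefSeq, TAIR10.1), and none of these 6 windows overlaps another annotated gene. Capitals mark the motifs that were searched, on either strand. These were the G-box core, GATAAG (the I-box) and the CCAAT box, the last also in its longer form CCAATC. A window with the longer form always holds the shorter one too.
CAB1, chr1:10477635-10477884, plus strand: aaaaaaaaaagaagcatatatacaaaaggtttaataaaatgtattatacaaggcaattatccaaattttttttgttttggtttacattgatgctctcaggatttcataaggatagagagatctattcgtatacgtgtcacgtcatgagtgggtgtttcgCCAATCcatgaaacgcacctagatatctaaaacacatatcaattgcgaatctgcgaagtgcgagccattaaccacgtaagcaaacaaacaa
CAB2, chr1:10475970-10476219, minus strand: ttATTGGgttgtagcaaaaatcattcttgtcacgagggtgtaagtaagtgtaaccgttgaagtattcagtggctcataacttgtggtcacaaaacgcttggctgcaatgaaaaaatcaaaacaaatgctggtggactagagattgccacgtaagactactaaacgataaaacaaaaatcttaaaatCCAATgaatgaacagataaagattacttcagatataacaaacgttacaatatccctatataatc
CAB3, chr1:10473503-10473752, minus strand: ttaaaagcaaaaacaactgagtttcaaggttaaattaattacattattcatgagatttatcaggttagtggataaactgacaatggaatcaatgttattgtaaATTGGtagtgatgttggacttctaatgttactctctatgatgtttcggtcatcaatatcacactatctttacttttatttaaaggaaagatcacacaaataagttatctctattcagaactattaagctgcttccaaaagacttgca
LHCA4, chr3:17495034-17495283, minus strand: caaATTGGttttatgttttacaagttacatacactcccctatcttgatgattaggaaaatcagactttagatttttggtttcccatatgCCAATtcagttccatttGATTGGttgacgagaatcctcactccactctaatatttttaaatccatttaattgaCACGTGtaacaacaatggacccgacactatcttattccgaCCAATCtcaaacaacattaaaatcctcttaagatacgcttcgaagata
LHCB4.1, chr5:208616-208865, plus strand: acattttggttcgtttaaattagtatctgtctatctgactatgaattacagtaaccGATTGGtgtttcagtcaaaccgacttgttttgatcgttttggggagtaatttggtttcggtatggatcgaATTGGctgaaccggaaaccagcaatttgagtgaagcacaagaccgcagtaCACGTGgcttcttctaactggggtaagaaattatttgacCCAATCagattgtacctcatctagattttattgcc
PSBQ-2, chr4:2673244-2673493, minus strand: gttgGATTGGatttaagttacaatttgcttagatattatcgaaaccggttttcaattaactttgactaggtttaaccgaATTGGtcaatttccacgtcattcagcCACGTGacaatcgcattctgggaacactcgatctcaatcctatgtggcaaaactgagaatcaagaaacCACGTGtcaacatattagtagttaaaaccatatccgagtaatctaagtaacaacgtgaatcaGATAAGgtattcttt
The upstream runs of CAB1, CAB2 and CAB3 were 43.9% to 50.4% identical over their alignments, against at least 95.6% in their coding sequences. The annotated gene starts of these 3 copies lie at different distances from their coding starts. The windows are therefore not matching stretches, and their identity does not show how far the promoters differ. Within these unmatched windows CAB1 held 1 CCAATC with its first base at -91 from the gene start, while CAB2 and CAB3 held CCAAT alone. Bases between the gene start and the coding start were not searched, so this is not a comparison of equivalent stretches. LHCA4 held 1 CACGTG at -88, LHCB4.1 held 1 at -74, and PSBQ-2 held a pair at -145 and -77.

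The CCAAT letters were present upstream of 16 of 17 LHC genes, 7 of 12 PSA genes and 2 of 10 PSB genes, against 46% of 27443 protein-coding genes. The longer CCAATC was present in 9 of 17 LHC, 0 of 12 PSA and 1 of 10 PSB windows, against 10.2% of all. CACGTG was found in 7 of 39 windows (6.49% of all genes) and GATAAG in 9 of 39 (12.3% of all genes). Of the 39 windows, 17 overlap another annotated gene. These are counts of letters in a window and say nothing on what binds there.

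All 39 genes had fewer reads, relative to the total, in mp clv3 than in WT. Every member had at least 561 reads in each genotype, so no member was near the counting floor. In the authors' deposited table, all 39 were lower at an FDR (adjusted p-value) under 0.05, where 43.5% of all models were lower and 31.3% higher. The FDR was listed as 0 for 37 of them and was highest for LHB1B1, at 2.98e-05, and its test is not stated. With at least a 2-fold difference as well, 23 of 39 (59.0%) were lower and 0 were higher, against 21.3% of all models lower and 9.85% higher. Among the 2939 models with a mean of at least 50 RPKM over both columns, a group closer to the members in level, 50.9% were lower and 43.7% higher by FDR, and 14.4% were lower and 11.5% higher with the 2-fold limit.

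The median log2 ratio of the 39 members, mp clv3 over WT, was -1.28, and the members ran from -3.08 for LHCB4.3 to -0.35 for LHB1B1. The median over the 23060 models above the counting floor was -0.15. The members' ratios stood between percentiles 6.68 and 41.4 of those models, so they were low but not among the most reduced of them. Percentiles within the models with a mean of at least 50 RPKM were not computed. Together the 39 genes took 1.92% of reads in WT (exact binomial interval 1.91% to 1.92%) and 0.894% in mp clv3 (0.892% to 0.897%). Of the 100 models with the highest RPKM, 9 were members in WT and 1 was a member in mp clv3.

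**Figure D1:**
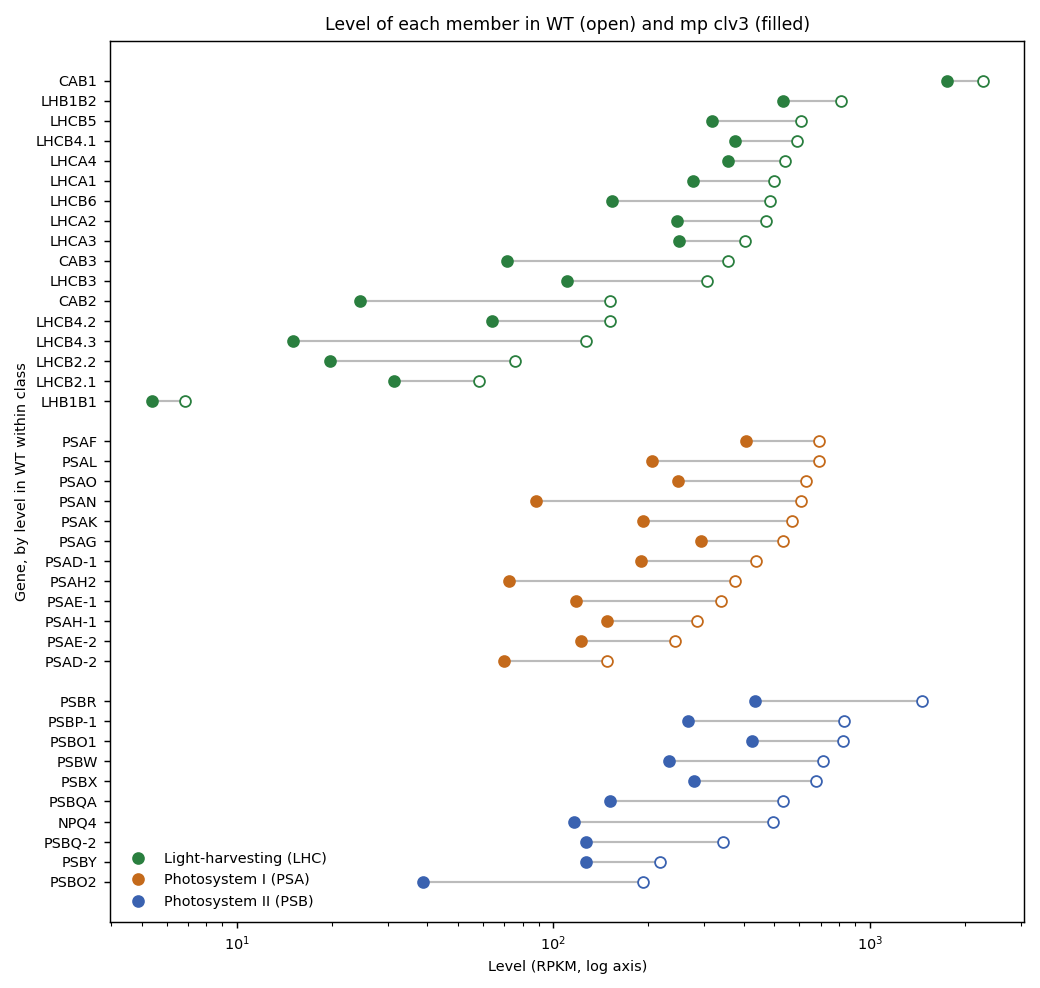
Level of each of the 39 genes in RPKM (log axis), open circles for WT and filled circles for mp clv3, with a grey line joining the pair; each circle is the single deposited value. In every row the filled circle lies to the left, with a short line for CAB1 (2281 and 1755 RPKM) and long lines for LHCB4.3, CAB2 and PSAN.

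The classes differed in where their members lay. The LHC median log2 ratio was -0.93, with 7 of 17 members at least 2-fold lower. The PSA median was -1.27 with 8 of 12, and the PSB median was -1.63 with 8 of 10. Ranges overlapped widely, from -3.08 to -0.35 for LHC, from -2.77 to -0.77 for PSA and from -2.30 to -0.77 for PSB, and no test between the classes was made. By summed reads LHC genes took 0.887% of reads in WT and 0.513% in mp clv3. PSA genes took 0.441% and 0.173%, and PSB genes 0.588% and 0.209%. The gap between LHC and the others in these sums rested in part on CAB1: without it the LHC sum was at a log2 ratio of -0.98, against -0.79 with it.

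**Figure D2:**
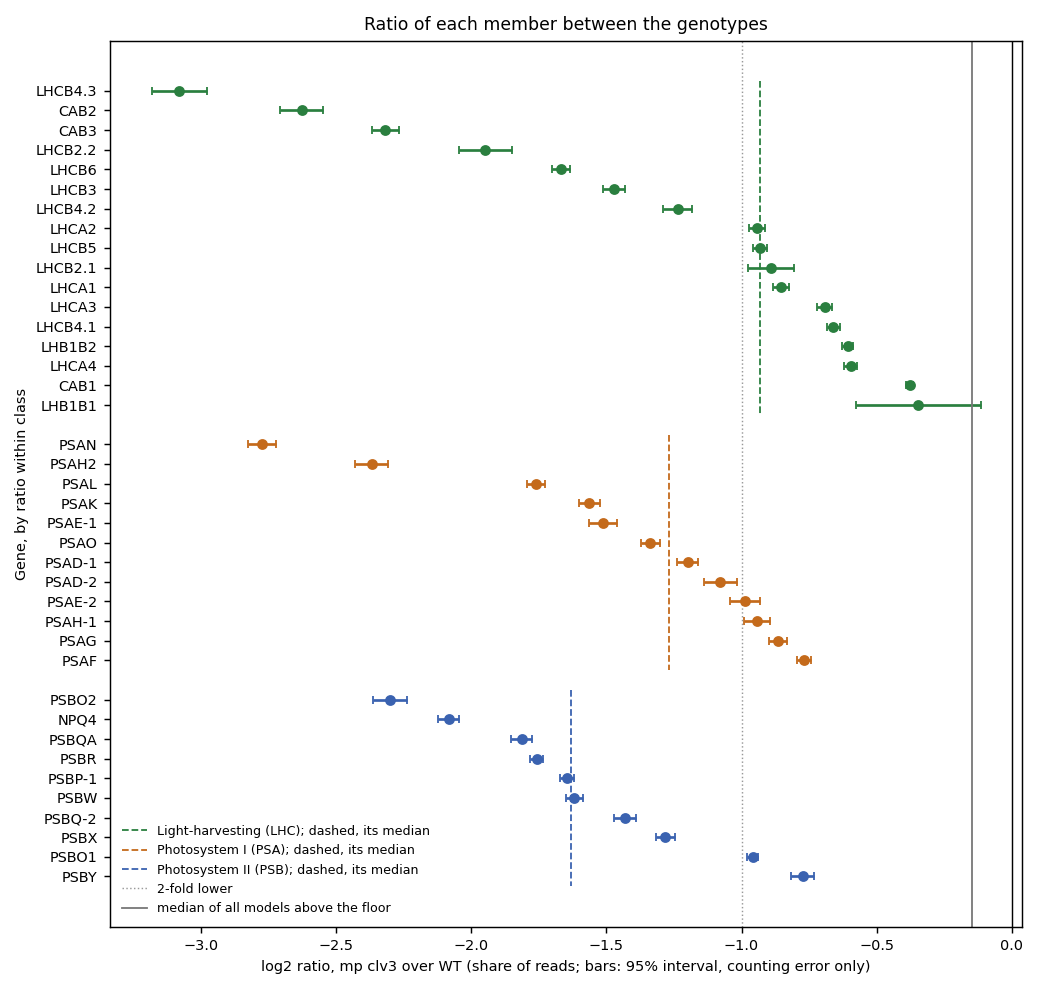
log2 ratio of mp clv3 over WT for each gene, ordered within its class, with bars for the 95% interval from counting error; dashed lines mark the class medians (-0.93, -1.27 and -1.63), the grey line the median of all models above the floor (-0.15) and the dotted line a 2-fold lower value. All points lie below 0, from -3.08 for LHCB4.3 to -0.35 for LHB1B1.

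The 4 LHCA genes, the antenna of photosystem I, lay close together and none was 2-fold lower. LHCA1 (AT3G54890) was at 500 RPKM in WT and 277 RPKM in mp clv3, a log2 ratio of -0.85 (-0.88 to -0.83). LHCA2 (AT3G61470) was at 471 and 245 RPKM (log2 ratio -0.94), LHCA3 (AT1G61520) at 405 and 250.3 RPKM (-0.69), and LHCA4 (AT3G47470) at 541 and 358 RPKM (-0.59). The ratios spanned 0.35 on the log2 scale, against 2.73 over the 13 LHCB genes. The intervals of the 4 did not overlap, so at this depth they differed from each other by more than counting error. LHCA4 shares 53 annotated bases with a gene on the opposite strand.

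Among the LHCB1 genes, which encode the most abundant protein of the main antenna, CAB1 stood far above the others in level. CAB1 had 242593 reads in WT and 189412 in mp clv3, or 2281 and 1755 RPKM, and was 1.30-fold lower (1.29 to 1.31). It ranked 10 among all models by RPKM in WT and 8 in mp clv3, and was the member that stayed among the 100 highest. LHB1B2 (AT2G34420) was at 814 and 534 RPKM, 1.52-fold lower (1.5 to 1.55). The annotated LHB1B2 transcript lies wholly within an annotated opposite-strand transcript, and its reads can be told apart from that transcript only by strand. The labels call the libraries strand-specific, but no source used here says if counting used the strand.

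The neighbours of CAB1 behaved differently from it. CAB2 had 18124 reads in WT and 2973 in mp clv3, 151 and 24.5 RPKM, and was 6.18-fold lower (5.85 to 6.53). CAB3 had 37042 and 7534 reads, 356 and 71.5 RPKM, and was 4.99-fold lower (4.82 to 5.17). LHB1B1 (AT2G34430) was the lowest of all 39 in both genotypes, at 6.85 and 5.39 RPKM from 703 and 561 reads, with a ratio of 1.27-fold lower (1.08 to 1.49). LHB1B1 shares 3.3% of its 100-base words with other transcripts, among them the far more abundant LHB1B2, so its few reads may be partly those of LHB1B2. CAB1 shares 108 annotated bases with a gene on the opposite strand. Among the 5 copies, 100-base words were shared only within CAB1 to CAB3 and between LHB1B1 and LHB1B2. Sums are the safer values for reads exchanged between copies, but not for reads shared with opposite-strand transcripts, as in LHB1B2. All 5 copies summed to 385078 reads in WT and 258152 in mp clv3, 1.51-fold lower (1.5 to 1.52). The 3 tandem copies summed gave nearly the same value, 1.51-fold lower (1.5 to 1.52). CAB2 and CAB3 summed were 5.33-fold lower (5.17 to 5.49). CAB1 made up 63.2% of the summed LHCB1 RPKM in WT and 73.4% in mp clv3.

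The other trimer genes were lower by more than the LHCB1 sum. LHCB2.1 and LHCB2.2 encode the LHCB2 protein, which takes part in state transitions, the movement of antenna between the photosystems. LHCB2.1 (AT2G05100) was at 58.0 RPKM in WT and 31.3 RPKM in mp clv3, 1.85-fold lower (1.75 to 1.96), and LHCB2.2 (AT2G05070) was at 75.8 and 19.6 RPKM, 3.86-fold lower (3.61 to 4.13). In WT LHCB2.2 was the higher of the pair and in mp clv3 LHCB2.1 was. They share 9.87% and 12.4% of their 100-base words, and their sum was 2.61-fold lower (2.50 to 2.73). LHCB3 (AT5G54270), a single gene for the third trimer protein, was at 307 and 111 RPKM, 2.77-fold lower (2.69 to 2.85). LHCB3 shares 186 annotated bases with an opposite-strand gene.

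The minor antenna genes differed widely. LHCB4 (CP29) has 3 genes, of which LHCB4.1 (AT5G01530) was at 592 RPKM in WT and 374 RPKM in mp clv3, 1.58-fold lower (1.55 to 1.61). LHCB4.2 (AT3G08940) was at 151 and 64.1 RPKM, 2.36-fold lower (2.27 to 2.45). LHCB4.3 (AT2G40100), the most divergent of the 3 in coding sequence (65.7% and 66.9% identity to LHCB4.1 and LHCB4.2), was at 127 and 15.0 RPKM, 8.46-fold lower (7.88 to 9.08). That was the largest ratio among the 39 genes, and LHCB4.3 shared no 100-base word with another transcript and overlapped no annotated gene. LHCB5 (AT4G10340, CP26) was at 605 and 317 RPKM, 1.91-fold lower (1.88 to 1.94). LHCB6 (AT1G15820, CP24), which links trimers to the core together with LHCB4, was at 485 and 153 RPKM, 3.18-fold lower (3.10 to 3.25), and shares 358 annotated bases with an opposite-strand gene.

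Among photosystem I genes, those for the stromal subunits that dock ferredoxin, PsaD and PsaE, lay in a narrow band. PSAD-1 (AT4G02770) was at 436 RPKM in WT and 190.0 RPKM in mp clv3, 2.3-fold lower (2.24 to 2.36), and PSAD-2 (AT1G03130) at 148 and 70.1 RPKM, 2.11-fold lower (2.03 to 2.2). PSAE-1 (AT4G28750) was at 338 and 118 RPKM, 2.85-fold lower (2.76 to 2.96), and PSAE-2 (AT2G20260) at 243 and 123 RPKM, 1.98-fold lower (1.91 to 2.06). PSAE-1 was thus the higher copy by RPKM in WT, and the pair differed by little in mp clv3. PSAE-1 shares 436 annotated bases with opposite-strand genes and 24.0% of its 100-base words with one of them, so its value depends on whether counting used the strand. PSAF (AT1G31330), whose lumenal side receives plastocyanin, was at 694 and 407 RPKM and had the highest ratio of the class, 1.71-fold lower (1.68 to 1.74).

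PSAN (AT5G64040), a small lumenal subunit also linked to plastocyanin docking, had the lowest ratio of the class. It was at 605 RPKM in WT and 88.5 RPKM in mp clv3, 6.84-fold lower (6.60 to 7.09), which moved it from rank 12 to rank 29 among the 39 genes by level. It shares 39 annotated bases with an opposite-strand gene and no 100-base word with another transcript. PSAF and PSAN were thus among the highest PSA genes in WT at 694 and 605 RPKM, and far apart in mp clv3.

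PSAH, PSAL and PSAO encode the membrane subunits on the side of photosystem I where antenna trimers dock during state transitions. PSAL (AT4G12800) was at 693 RPKM in WT and 205 RPKM in mp clv3, 3.39-fold lower (3.32 to 3.46). PSAO (AT1G08380) was at 628 and 248 RPKM, 2.53-fold lower (2.47 to 2.59). The PSAH pair came apart: PSAH2 (AT1G52230) was at 375 and 72.7 RPKM, 5.17-fold lower (4.95 to 5.39), and PSAH-1 (AT3G16140) was at 284 and 148 RPKM, 1.92-fold lower (1.86 to 1.99). PSAH-1 shares 788 annotated bases and PSAH2 174 with an opposite-strand gene, and 47.0% and 12.4% of their 100-base words. The summed pair was 2.99-fold lower (2.91 to 3.07). PSAG (AT1G55670) and PSAK (AT1G30380), related membrane subunits on the antenna side, were at 534 and 293 RPKM and at 567 and 192 RPKM, or 1.82-fold (1.78 to 1.86) and 2.96-fold (2.88 to 3.03) lower. PSAG shares 479 annotated bases and 55.8% of its 100-base words with an opposite-strand transcript.

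Photosystem II genes for the oxygen-evolving complex, the lumenal proteins that shield the manganese cluster, were lower in all 5 cases. PSBO1 (AT5G66570) was at 823 RPKM in WT and 423 RPKM in mp clv3, 1.94-fold lower (1.92 to 1.97), while PSBO2 (AT3G50820) was at 192 and 38.8 RPKM, 4.93-fold lower (4.72 to 5.15). The pair is 83.6% identical in coding sequence, and neither copy shared a 100-base word with another transcript or overlapped an annotated gene. PSBP-1 (AT1G06680) was at 832 and 266 RPKM, 3.13-fold lower (3.07 to 3.19). PSBQA (AT4G21280) was at 531 and 151 RPKM, 3.52-fold lower (3.42 to 3.61), and PSBQ-2 (AT4G05180) at 343 and 127 RPKM, 2.70-fold lower (2.62 to 2.78). PSBQA and PSBQ-2 had a summed ratio of 3.11-fold lower (3.05 to 3.17). Both held a pair of CACGTG hexamers upstream, as did PSAH2, and no other member held more than 1. The upstream windows of PSBQA and PSAH2 each overlap another annotated gene, while that of PSBQ-2 does not.

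The remaining 5 photosystem II genes ran from a log2 ratio of -2.08 for NPQ4 to -0.77 for PSBY. NPQ4 (AT1G44575) encodes PsbS, the sensor of lumen acidity that switches excess energy to heat, and was at 494 RPKM in WT and 116 RPKM in mp clv3, 4.24-fold lower (4.13 to 4.36). PSBR (AT1G79040), a small lumen-side protein near the oxygen-evolving complex, was the second highest of the 39 in WT at 1467 RPKM and was at 434 RPKM in mp clv3, 3.38-fold lower (3.32 to 3.44). PSBW (AT2G30570) and PSBX (AT2G06520), small membrane proteins, were at 711 and 232 RPKM and at 678 and 279 RPKM, or 3.07-fold (3.0 to 3.14) and 2.43-fold (2.37 to 2.49) lower. PSBY (AT1G67740), another small membrane protein, was at 217 and 127 RPKM, 1.71-fold lower (1.66 to 1.76).

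Copies of the same subunit had similar ratios in some groups and different ones in others. In the 8 groups of copies, which hold 20 of the genes, the spread of log2 ratios within a group ran from 0.12 for PSAD and 0.38 for PSBQ to 2.28 for LHCB1 and 2.42 for LHCB4. In 3 groups (LHCB1, LHCB4 and PSBO) the copy that was highest in WT held a larger share of the group's summed RPKM in mp clv3, and in 5 it held a smaller share. PSBO1 held 81.1% of the PSBO sum in WT and 91.6% in mp clv3, and LHCB4.1 held 68.0% and 82.5% of the LHCB4 sum. PSAH2 went the other way, with 56.9% of the PSAH sum in WT and 33.0% in mp clv3. The order of the 39 genes by RPKM was similar in both genotypes (Spearman's rho 0.87 over 39 genes, a description, since both columns come from the same gene models and lengths).

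**Figure D3:**
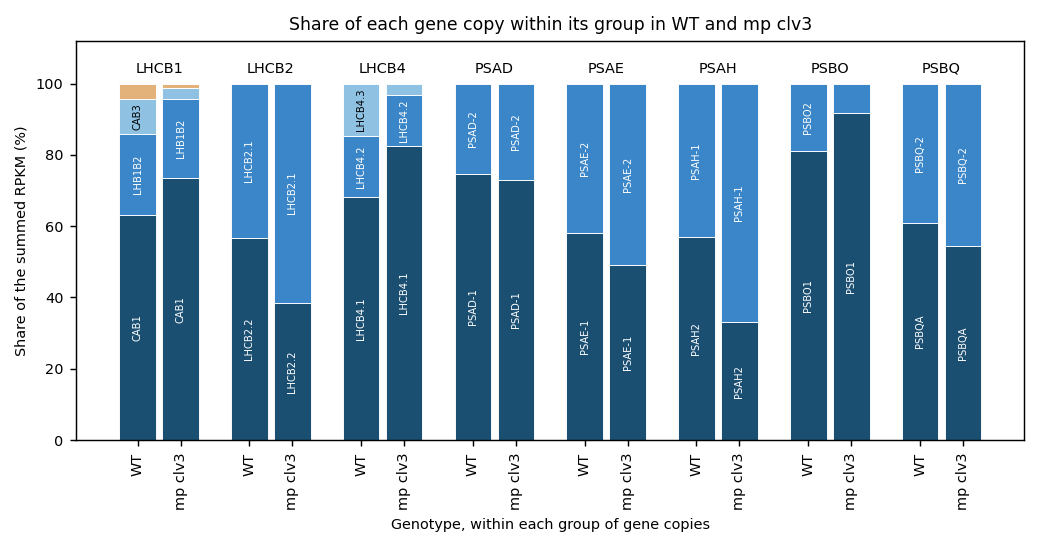
Share (%) of each gene copy in the summed RPKM of its group, with WT and mp clv3 as neighbouring bars for the 8 groups; segments are stacked from the copy highest in WT upwards and small segments are not labelled. CAB1, LHCB4.1 and PSBO1 take a larger share in mp clv3 (73.4%, 82.5% and 91.6%), while PSAH2 and LHCB2.2 take a smaller one (33.0% and 38.5%).

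Other genes of the pathway were read from lists given by locus. Of 13 nuclear genes for electron transport and the ATP synthase, 9 were called lower and 0 higher by the authors' deposited table with the 2-fold limit, where 21.3% of all models were lower and 9.85% higher. Their median log2 ratio was -1.12. FNR2, a ferredoxin-NADP reductase, was 4.01-fold lower (3.87 to 4.15), and ATPD, the delta subunit of the ATP synthase, was 3.33-fold lower (3.19 to 3.48). Of 17 chlorophyll synthesis genes, 7 were lower and 1 was higher by the same rule (21.3% and 9.85% of all models), and the median was -0.66. The count of higher genes was thus not above the share over all models. PORB and PORC, which reduce protochlorophyllide in light, were 2.49-fold (2.43 to 2.56) and 3.58-fold (3.37 to 3.82) lower. DVR, a vinyl reductase of the pathway, was 3.39-fold lower (3.17 to 3.63), and PORA had 60 reads against 211 in WT. Of 10 genes for insertion of antenna proteins, state transitions and assembly, 1 was lower and 0 were higher by that rule, below the 21.3% and 9.85% of all models, and the median was -0.31. That gene was HCF101, a factor for iron-sulphur clusters of photosystem I, 2.22-fold lower (2.08 to 2.36), and HCF136, a photosystem II assembly factor, was at a log2 ratio of -0.95 (-1.02 to -0.89). These medians stand beside -0.15 over all models.

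Of 10 regulators of photosynthesis genes, 2 were lower and 3 higher by that rule, against 21.3% and 9.85% of all models, so the count of lower genes was near the share over all models. The median log2 ratio was -0.12. GLK1, a transcription factor that activates antenna and chlorophyll synthesis genes, was at 23.4 RPKM in WT and 1.95 RPKM in mp clv3, 12-fold lower (10.2 to 14.1). Its close relative GLK2 was at 12.7 and 7.46 RPKM, 1.7-fold lower (1.53 to 1.9). HY5, a bZIP factor of light responses, was at 8.03 and 23.0 RPKM, 2.86-fold higher (2.54 to 3.23). PIF5, a phytochrome-interacting factor, was at 4.35 and 14.2 RPKM, 3.26-fold higher (2.91 to 3.65). Among 8 antenna-like and rare antenna genes, 4 were lower and 1 was higher by that rule (21.3% and 9.85% of all models), the count of higher genes being near the share over all models. The median log2 ratio was -0.95. LHCA6 and LHCB2.3 were 9.23-fold (7.82 to 10.9) and 6.10-fold (4.98 to 7.55) lower. The stress-induced ELIP1 and ELIP2 were higher, at 6.24 against 3.41 RPKM in WT and at 2.56 against 0.804 RPKM.

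The plastid-encoded photosystem genes, the partners of these subunits, were lower in all 7 cases listed by the authors' FDR, where 43.5% of all models were lower. With the 2-fold limit 6 of these were lower, against 21.3% of all models. The median log2 ratio of the list was -1.38. The genes psbD, for a reaction centre protein, and psbC, for a core antenna protein, were 3.42-fold (3.35 to 3.48) and 3.31-fold (3.25 to 3.38) lower. These genes overlap in the plastid genome, so their reads are not independent. Libraries were made from purified mRNA, and plastid transcripts were measured only as far as they were carried through that step.

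**Figure D4:**
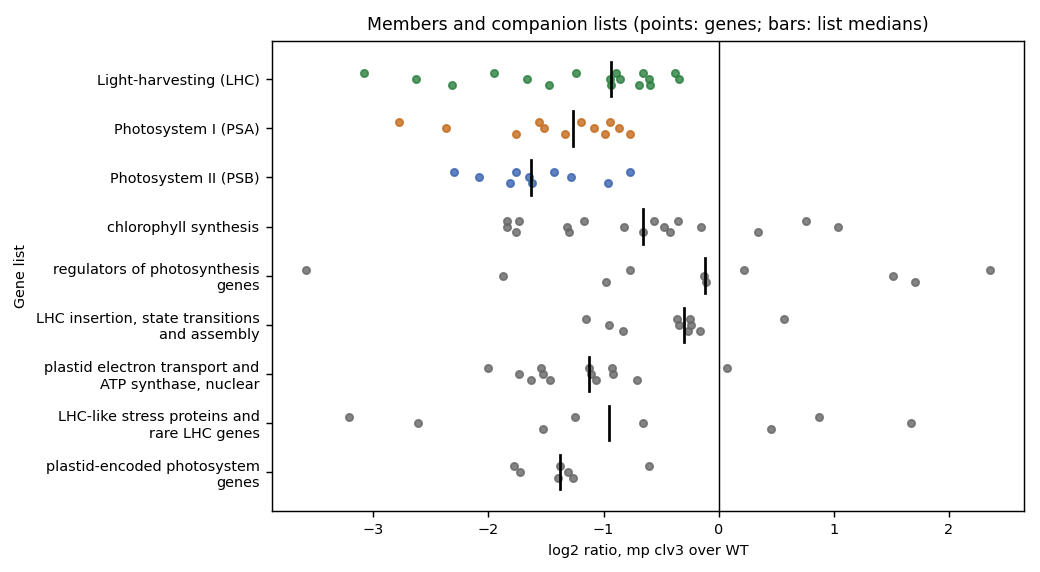
log2 ratio of mp clv3 over WT for the 3 classes of members (coloured) and for 6 other lists of the pathway (grey), 1 point a gene, with black bars for list medians. The electron transport and plastid-encoded lists have medians of -1.12 and -1.38, close to the members, while the insertion and regulator lists lie nearer 0 at -0.31 and -0.12.

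Markers of other tissues differed between the genotypes along with the members. Whole apices were measured, so fewer green cells and less of these transcripts per cell cannot be told apart. The meristem markers STM, WUS, CLV1, LFY and KNAT1, which define the labelled tissue, were detected in both genotypes. Their summed level was 149 RPKM in WT and 319 RPKM in mp clv3. Most of that difference was STM, at 68.8 and 217 RPKM. By the authors' FDR 4 of the 5 meristem markers were higher and KNAT1 was lower, where 31.3% of all models were higher and 43.5% lower. The summed level of 5 floral organ markers was 476 RPKM in WT and 2.14 RPKM in mp clv3. All 5 were at least 2-fold lower, against 21.3% of all models. A sixth floral organ marker on the list was not analysed here. The summed level of 5 tapetum markers (anther tissue) was 357 and 0.163 RPKM, with MS2 at 0 reads in mp clv3. The 5 epidermis markers summed to 1241 and 351 RPKM, the 5 vascular markers to 124 and 41.2 RPKM, and the 4 guard cell lineage markers to 28.2 and 13.3 RPKM. Of these, 3 of 5, 3 of 5 and 3 of 4 were at least 2-fold lower, against 21.3% of all models. The epidermis sum was mostly PDF1 (723 and 224 RPKM) and CER1 (251 and 11.0 RPKM). The epidermis markers ATML1 and PDF2 were 1.73-fold and 1.72-fold lower. The part of these differences in tissue in the lower photosynthesis transcripts was not tested.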

How the data were processed

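mRNA was measured in 2 genotypes. Per the labels' protocols, mRNA was purified from total RNA, made into strand-specific NEBNext Ultra libraries and sequenced on an Illumina HiSeq with 100-base paired ends. CASAVA 1.7, BWA and TAIR10 are listed, without roles, in the submitters' processing notes.

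The read numbers deposited by the authors were handled as estimated counts: whole numbers, with 0 written as 0.5 and set back to 0. The authors' RPKM columns scale them by gene model length and total reads. The authors' log2 column is the log2 of the RPKM ratio, mp clv3 over WT. The FDR deposited by the authors is an adjusted p-value from an unstated test. Of 27323 models, 1 with shifted cells was left out. Column totals were 103347441 reads (mp clv3) and 101878433 reads (WT).

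Ratios are of reads over the total, with exact Clopper-Pearson 95% intervals on read pairs (read number divided by 2, rounded up, scipy 1.17.1). Their code was run on simulated pairs with only the counting error that the intervals assume, which does not show how they perform on real libraries. The intervals hold neither spread between plants nor PCR duplicates. With 1 column per genotype no test between genotypes was made. Models with 6 reads or fewer in both were given no ratio. Members, lists and motifs were chosen with earlier results of these data known. The group of models with a mean of at least 50 RPKM was added after the data were seen. All 39 members are accounted for; other genes named are the 2 with the largest absolute ratio per list at 5 RPKM or more, plus GLK1, GLK2, HY5, the POR and the ELIP genes; markers were named as a check. Where a protein comparison had been planned, coding sequences were compared (Biopython 1.88, global alignment, identical bases over aligned columns). TMM factors came from edgeR 4.0.16. Alternatives were TMM, a total without organelle models, pseudocounts of 1 and 5 RPKM, an RPKM minimum of 1, a 1.5-fold threshold, intervals wholly beyond 2-fold, and summed copies.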

Additional observations from a re-analysis of the deposited data

How the results depend on the processing

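No paired analysis was possible because the columns carry no replicate number, and for the same reason no replicate could be left out. TMM scaling moved every log2 ratio up by 0.09, so the medians became -1.19 for all members, -0.84 for LHC, -1.18 for PSA and -1.54 for PSB, and 22 of 39 members were at least 2-fold lower. Without organelle models in the total, with a pseudocount of 1 or 5 RPKM or with an RPKM of at least 1, the median over all members stayed between -1.29 and -1.27, and 23 members were at least 2-fold lower in each case. Entering the LHCB1 and the LHCB2 genes as 1 sum each gave medians of -1.31 for all members and -0.94 for LHC. With a 1.5-fold threshold, 37 of 39 members and 15 of 17 LHC genes were lower. In a setting chosen after seeing the data, the 19 members with no annotated overlap and no shared 100-base word were kept. Fewer genes were thus counted by construction. Of the 19, 11 were at least 2-fold lower, against 21.3% of all models without that filter. By class these were 1 of 6 LHC, 4 of 5 PSA and 6 of 8 PSB genes. The LHC count was then not above the share over all models. The medians were then -0.89 for LHC, -1.34 for PSA and -1.53 for PSB. No member or summed copy group changed sign, but these settings could not have changed it. An equal pseudocount cannot change a sign, and thresholds do not alter ratios. Leaving out organelle models moved every log2 ratio by -0.008. The TMM shift of 0.09 is smaller in size than any of the ratios. Depth limits LHB1B1 most: its 561 and 703 reads leave an interval from -0.58 to -0.12 on the log2 scale.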
